A study of Homo sapiens with 9 samples.

Results

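The insulin-like growth factor 2 (IGF2) axis and the IGF2 mRNA-binding proteins were followed here across 3 human neuroblastoma cell lines. The set held 10 genes, taken by name from the 19706 usable gene symbols of the deposited table: IGF2BP1, IGF2BP2, IGF2BP3, IGF2, IGFBP2, IGF1R, INSR, IGF2R, IRS1 and IRS2. Of these, 9 were among the 13076 genes tested. IGF2BP2 stayed below the expression filter in every library.

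Polyadenylated RNA was sequenced from untreated Kelly and BE(2)C cells, in which the labels give the MYCN oncogene as amplified, and from untreated SH-SY5Y cells, in which it is not amplified. Each line had 3 libraries, collected at 70% confluence in medium with 10% serum. The labels do not name separate cultures, so the p-values below reflect the spread among libraries alone, and that spread may be technical. Because SH-SY5Y is the sole line without amplification, its MYCN status cannot be told apart from its other traits. The series title concerns the disruption of let-7 microRNAs in neuroblastoma. Levels of let-7 were not analysed here.

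IGF2 is a secreted fetal growth factor. It signals through the tyrosine kinase receptors IGF1R and INSR and their adaptors IRS1 and IRS2 to PI3-kinase and AKT. IGF2R binds IGF2 and carries it to lysosomes for breakdown, and IGFBP2 is a secreted carrier that binds IGFs outside the cell. The IGF2BP proteins are oncofetal RNA-binding proteins, first named for binding IGF2 mRNA, that stabilise or localise their target mRNAs and read N6-methyladenosine (m6A) marks. IGF2BP1 is a well-known let-7 target.

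Values are scaled TPM, TPM (transcript abundance per length, as a share of the library) rescaled to the gene total of a library and divided by a trimmed-mean factor. Differences are log2 fold changes of scaled TPM plus a pseudocount of 1, given ± the standard error (SE). They were tested with limma across all 9 libraries, and a Benjamini-Hochberg adjusted p under 0.05 over all genes tested counts as called. The pseudocount makes fold changes of weakly expressed genes appear smaller than they are. The ERCC spike-ins made up 83.7% to 90.6% of the back-transformed total and genes 9.34% to 16.2%. Mitochondrial genes took 16.5% to 35.3% of the gene total. Among the 61 abundant spike-ins, whose amounts should not depend on the line, single sequences departed from the others on the log2 scale by up to 0.18 in BE(2)C against SH-SY5Y, 1.38 in Kelly against SH-SY5Y and 1.2 in Kelly against BE(2)C. Every smaller difference in the same comparison lies within that departure, whether of a member, a list gene or a neighbour. Some genes used by every cell were listed at low values: HSPA8, a constitutive chaperone, averaged 1.91 to 11.7 by line, and TUBB, a tubulin gene, averaged 0.23 ± 0.211 in SH-SY5Y. Whether a deposited value holds all transcripts of its gene was not tested. MYCN itself averaged 5970 ± 77.6 in Kelly cells, 6050 ± 1090 in BE(2)C cells and 27.3 ± 1.01 in SH-SY5Y cells (SD, n = 3), in the order the labels give. All 10 adrenergic neuroblastoma markers were at 1 or more in Kelly and BE(2)C, and 9 of 10 in SH-SY5Y, where TH was at 0.191. The markers' summed level was 7740 to 9350 in Kelly cells, 6220 to 7100 in BE(2)C cells and 4460 to 4550 in SH-SY5Y cells. Summed leukocyte, epithelial and hepatic markers reached at most 4.75, 2.31 and 0.575 in any library. The 6 fibroblast and mesenchymal markers differed between the lines, with sums of 28.6 to 35.3 in Kelly cells, 185 to 236 in BE(2)C cells and 80.4 to 82.8 in SH-SY5Y cells, and with 2, 5 and 6 of them at 1 or more. Most of each sum was VIM, the vimentin gene, at 28.4 ± 2.81, 191 ± 31.1 and 59 ± 2.82, while COL1A2, a collagen gene, was listed at 0 in every Kelly library and averaged 12.6 ± 0.792 in SH-SY5Y. The 5 Schwann and glial markers summed to 1.85 to 4.24, 4.99 to 10.4 and 2.41 to 3.47 in the same order, with S100B listed at 0 in Kelly. The part of these markers in the results below was not tested.

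The let-7 family is shown because its seed, the bases that pair with a target, occurs in several of these mRNAs. The 9 mature sequences matched in RefSeq carry the same seed, bases 2 to 8, in capitals. Let-7a, let-7d, let-7e and miR-98 are printed here, 5′ to 3′.

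hsa-let-7a-5p: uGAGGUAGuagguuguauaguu
hsa-let-7d-5p: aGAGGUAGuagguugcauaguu
hsa-let-7e-5p: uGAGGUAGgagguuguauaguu
hsa-miR-98-5p: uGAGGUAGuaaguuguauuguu

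The complementary letters in an mRNA are CTACCTC, searched on the transcript strand only. In the GENCODE 29 annotation (GRCh38), the 3′ UTR of IGF2BP1, 6206 bases long, held 4 such matches, of which 3 were followed by A. IGF1R held 2, and IGF2BP2, IGF2BP3, INSR, IGF2R and IRS2 held 1 each. IGF2, IGFBP2 and IRS1 held 0 in the transcript read. Of 12428 tested genes with an annotated 3′ UTR, 11.2% held at least 1 match and 0.0885% held 4 or more. Of those with a 3′ UTR of 4000 to 8000 bases, near the length of IGF2BP1's, 28.2% held at least 1 and 0.418% held 4 or more. The 4 stretches of IGF2BP1 and the single stretch of its paralog IGF2BP3 show how the family members differ in this feature, with the seed match in capitals.

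IGF2BP1 site 1, chr17:49051061-49051083, plus strand: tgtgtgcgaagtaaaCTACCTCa
IGF2BP1 site 2, chr17:49053698-49053720, plus strand: cagcagtgctagtaaCTACCTCa
IGF2BP1 site 3, chr17:49054352-49054374, plus strand: gtataaatggattaaCTACCTCa
IGF2BP1 site 4, chr17:49054997-49055019, plus strand: tcacttttgttttatCTACCTCt
IGF2BP3 site, chr7:23311795-23311817, minus strand: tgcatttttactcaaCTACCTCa

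The single matches of INSR and IRS2 are set beside them because the RNAs of these genes were lower in the MYCN-amplified lines, where that of IGF2BP1 was higher.

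INSR site, chr19:7114656-7114678, minus strand: ttttttcagcacagtCTACCTCa
IRS2 site, chr13:109755844-109755866, minus strand: aaaacgaccacagtcCTACCTCa

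A match is a run of letters and not a measured binding site. Genes with a match lay on both sides of 0 in these comparisons. As INSR and IRS2 were chosen by the direction of their RNA, their contrast with IGF2BP1 follows from that choice. The part of let-7 in these levels was not tested.

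The IGF2BP family differed between the lines in level and in make-up. IGF2BP1 lies at chr17:48997412-49055650 on the plus strand. Its scaled TPM was 376, 367 and 381 in the 3 Kelly libraries, 113, 106 and 114 in BE(2)C, and 0.15, 0.171 and 0.0905 in SH-SY5Y. No libraries of any 2 lines overlapped, and every SH-SY5Y library was under 1. The means were 374 ± 6.80 in Kelly cells, 111 ± 4.41 in BE(2)C cells and 0.137 ± 0.0417 in SH-SY5Y cells (SD, n = 3). The ratio of means to SH-SY5Y was 2730 for Kelly and 809 for BE(2)C, ratios that rest on a denominator near 0. On the log2 scale IGF2BP1 was higher than in SH-SY5Y by 8.37 ± 0.08 in Kelly (adjusted p = 3.81e-11) and by 6.62 ± 0.08 in BE(2)C (adjusted p = 1.57e-10). These sizes depend on the pseudocount and on the rescaling: they were 10.64 and 8.89 with a pseudocount of 0.1, 5.24 and 3.58 with 10, and 5.31 and 3.77 with the deposited values. Among all tested genes ordered by absolute change, it stood 0.0306% from the top in Kelly and 0.0918% in BE(2)C. In bulk RNA, fewer expressing cells and less RNA per cell cannot be told apart. IGF2BP1 also differed between the amplified lines, by 1.75 ± 0.08 (adjusted p = 3.18e-07), a ratio of means of 3.37 in favour of Kelly. MYCN differed there by 0.00 ± 0.12 (adjusted p = 0.991), which became a call with library totals only (0.32, adjusted p = 0.024), with quantile normalization (0.62, adjusted p = 0.00113) and without BE(2)C replicate 1 (-0.16, adjusted p = 0.0357).

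IGF2BP3, at chr7:23310209-23470467 on the minus strand, was present in all 3 lines. Its scaled TPM was 105, 86.6 and 89.2 in Kelly, 44, 61.9 and 68 in BE(2)C, and 59.2, 61.2 and 63.2 in SH-SY5Y. The Kelly libraries stood above all others, whereas the BE(2)C libraries lay on both sides of the SH-SY5Y ones. IGF2BP3 was higher in Kelly than in SH-SY5Y by 0.60 ± 0.15 (adjusted p = 0.00748) and than in BE(2)C by 0.70 ± 0.15 (adjusted p = 0.0035). Both differences are smaller than the largest spike-in departure in their comparison. With the deposited values taken without rescaling, the difference from SH-SY5Y was -0.10 (adjusted p = 0.468), which ends the call. Between BE(2)C and SH-SY5Y the difference was -0.10 ± 0.15 (adjusted p = 0.593). It became -0.55 with library totals only (adjusted p = 0.00473) and -0.60 with the deposited values (adjusted p = 0.000837), both calls, and 0.08 without BE(2)C replicate 1. The 3′ end of IGF2BP3 overlaps that of MALSU1 in the annotation, and whether strand was used in making the values was not stated in these sources.

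IGF2BP2, at chr3:185643739-185825056 on the minus strand, was at 0.155 or less in every library. It was listed at 0 in Kelly replicates 1 and 3 and in SH-SY5Y replicate 2, and it was not tested.

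IGF2BP1 made up 80.0 ± 1.58% of the summed family RNA in Kelly cells, 65.9 ± 5.18% in BE(2)C cells and 0.225 ± 0.0721% in SH-SY5Y cells (SD, n = 3). IGF2BP3 made up 20 ± 1.59%, 34.1 ± 5.21% and 99.7 ± 0.0499% in the same order. The summed family level was 468 ± 13.3 in Kelly cells, 169 ± 12.8 in BE(2)C cells and 61.4 ± 1.96 in SH-SY5Y cells, with no overlap between the libraries of the lines. In SH-SY5Y the listed family RNA was thus nearly all IGF2BP3. Values under 1, as those of IGF2BP1 and IGF2BP2 there, cannot be read as absence. Whether they hold all transcripts of these genes was not tested. No 31-base stretch was shared between the transcripts of the 3 family genes in GENCODE 29. The shares were not tested.

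**Figure D1:**
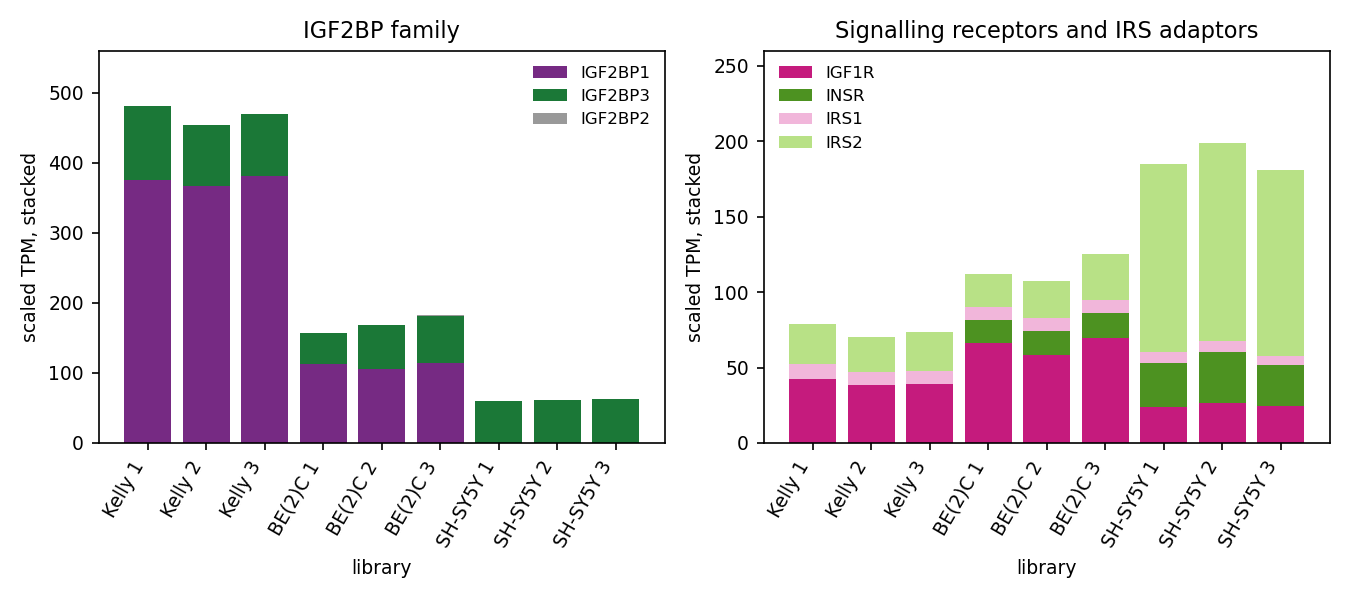
Stacked scaled TPM in each of the 9 libraries for the IGF2BP family (left) and for the signalling receptors IGF1R and INSR with the adaptors IRS1 and IRS2 (right). Family sums are 454 to 480 in Kelly cells, 157 to 182 in BE(2)C cells and 59.4 to 63.4 in SH-SY5Y cells, where nearly all is IGF2BP3; sums on the right run the opposite way, highest in SH-SY5Y (181 to 198), where IRS2 is the tallest segment.

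IGF2, the ligand, lies at chr11:2129112-2149603 on the minus strand, and the annotation holds a second gene entry of that name ending at 2158658. Its scaled TPM was 1840, 1470 and 1480 in Kelly, 1230, 1700 and 1900 in BE(2)C, and 2.41, 2.46 and 1.79 in SH-SY5Y. Both amplified lines were far above SH-SY5Y and overlapped each other. The means were 1600 ± 208, 1610 ± 345 and 2.22 ± 0.369 (SD, n = 3). IGF2 was higher than in SH-SY5Y by 8.95 ± 0.16 in Kelly (adjusted p = 1.48e-09) and by 8.95 ± 0.16 in BE(2)C (adjusted p = 2.06e-09), ratios of means of 720 and 727. In absolute change it ranked at 0.00765% from the top in Kelly and at 0.0153% in BE(2)C. Under the 5 scalings tried, the difference from SH-SY5Y ran from 6.93 to 9.06 in Kelly and from 7.07 to 9.07 in BE(2)C. The amplified lines differed by 0.00 ± 0.16 (adjusted p = 0.997).

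The readthrough transcript INS-IGF2 shares 433 of its 31-base stretches with IGF2, 54.3% of its own and 6.18% of IGF2's, so reads could be assigned to either. INS-IGF2 was at 4.92 in Kelly replicate 3 and at 0.0681 or less in the other libraries. The ligands IGF1 and INS reached at most 0.145 and 0.596 in any library, so IGF2 was the only ligand RNA of the 3 above 1.

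IGFBP2, at chr2:216632828-216664436 on the plus strand, was abundant in every library. Its scaled TPM was 690, 814 and 742 in Kelly, 653, 789 and 728 in BE(2)C, and 628, 567 and 553 in SH-SY5Y. All 6 libraries of the amplified lines stood above the 3 of SH-SY5Y, by margins that were small beside their own range. The difference from SH-SY5Y was 0.36 ± 0.09 in Kelly (adjusted p = 0.00783) and 0.31 ± 0.09 in BE(2)C (adjusted p = 0.0155). These directions depended on the scaling. Kelly was at 0.22 with library totals only (adjusted p = 0.0599), 0.15 with quantile normalization (adjusted p = 0.181) and -0.35 with the deposited values (adjusted p = 0.0393, a call the other way). BE(2)C was at -0.15, -0.08 and -0.26 in the same order, none of them called. Without BE(2)C replicate 2, SH-SY5Y replicate 2 or SH-SY5Y replicate 3, the BE(2)C call was lost, with adjusted p of 0.0564, 0.0505 and 0.0571.

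**Figure D2:**
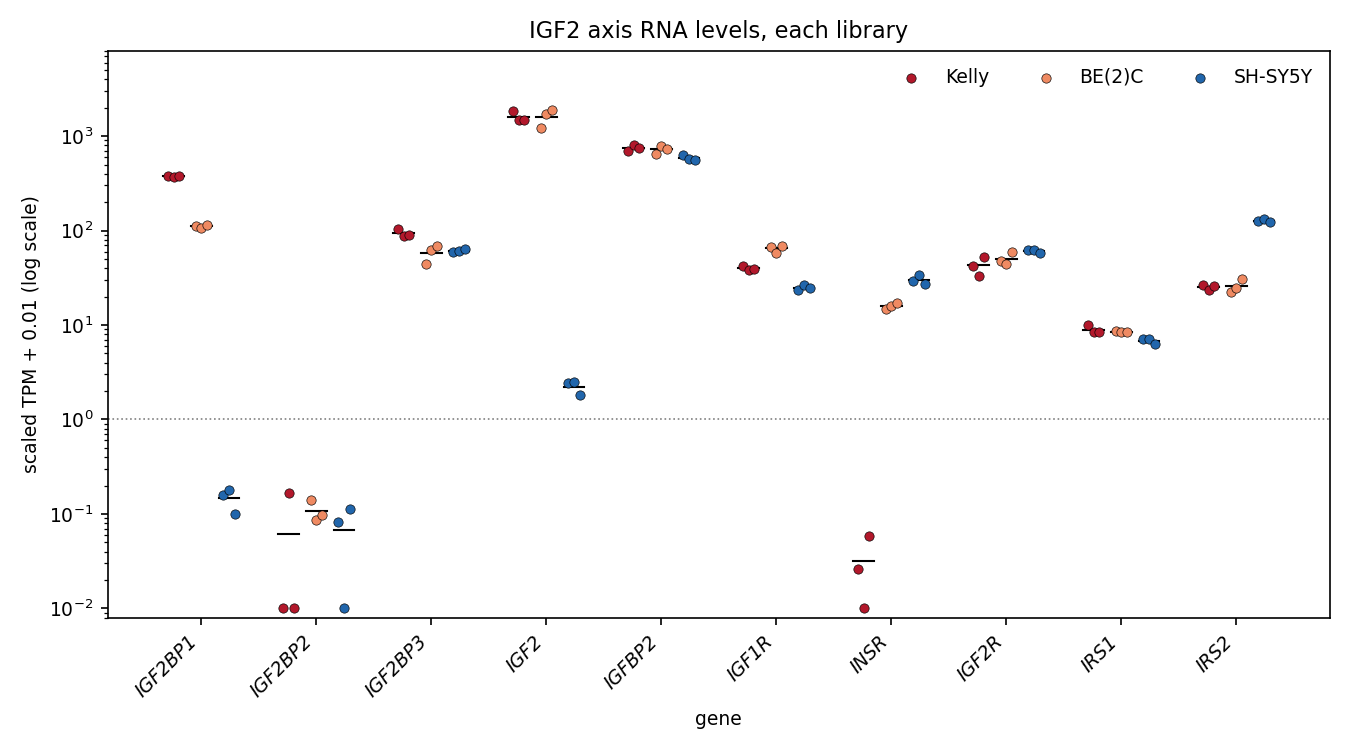
Scaled TPM plus 0.01 on a log axis for the 10 genes in each library, with points for libraries, black lines for means of 3 and a dotted line at the expression filter of 1. IGF2BP1 and IGF2 separate Kelly and BE(2)C from SH-SY5Y by more than 2 orders of magnitude, INSR falls below the filter in Kelly alone, and IGF2BP2 is below it in all 9 libraries.

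Of the 2 signalling kinases, IGF1R was higher and INSR lower in both amplified lines than in SH-SY5Y, although with the deposited values the IGF1R difference was lost in Kelly. Both were lower in Kelly than in BE(2)C. IGF1R, at chr15:98648539-98964530 on the plus strand, had a scaled TPM of 42.3, 38.4 and 39.1 in Kelly, 66.4, 58.4 and 69.4 in BE(2)C, and 23.6, 26.7 and 24.5 in SH-SY5Y. The libraries of the 3 lines did not overlap, with BE(2)C highest and SH-SY5Y lowest. IGF1R was higher than in SH-SY5Y by 1.34 ± 0.10 in BE(2)C (adjusted p = 2.83e-06) and by 0.66 ± 0.10 in Kelly (adjusted p = 0.000325). It was lower in Kelly than in BE(2)C (-0.68 ± 0.10, adjusted p = 0.00029). The Kelly differences are within the largest spike-in departure, and with the deposited values Kelly and SH-SY5Y differed by -0.03 (adjusted p = 0.838).

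INSR, the insulin receptor, lies at chr19:7112255-7294034 on the minus strand. Its scaled TPM was 29.5, 33.7 and 27.0 in SH-SY5Y, 14.8, 15.7 and 16.9 in BE(2)C, and 0.0159, 0 and 0.0490 in Kelly. The order SH-SY5Y, BE(2)C, Kelly held with no overlap, and Kelly was near 0. INSR was lower than in SH-SY5Y by -0.88 ± 0.15 in BE(2)C (adjusted p = 0.000818) and by -4.92 ± 0.15 in Kelly (adjusted p = 2.51e-08). Kelly was also below BE(2)C (-4.04 ± 0.15, adjusted p = 1.26e-07). The size in Kelly depends on the pseudocount: against SH-SY5Y it was -7.97 with a pseudocount of 0.1, -2 with 10 and -2.63 with the deposited values, and against BE(2)C it was -7.05, -1.36 and -1.51. The nearest 5 tested genes on each side of INSR on chromosome 19 were chosen for display after the INSR values were seen. In Kelly against SH-SY5Y 0 were higher and 6 lower, beside 28.1% and 27.2% of all tested genes. Their fold changes there ran from -2.26 to 0.44. In BE(2)C against SH-SY5Y 2 were higher and 4 lower, beside 28.6% and 30.7% of all tested genes. ARHGEF18, 101.1 kb away, averaged 42.1 ± 6.36 in Kelly and 46.3 ± 9.0 in SH-SY5Y, whereas GPR108, 374.7 kb away, averaged 0.394 ± 0.0807 in Kelly and 5.69 ± 0.75 in SH-SY5Y. Whether the low INSR value reflects the transcripts that the deposited value holds was not tested.

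IGF1R made up 99.9 ± 0.0644% of the summed IGF1R and INSR RNA in Kelly cells, 80.3 ± 1.45% in BE(2)C cells and 45.4 ± 1.86% in SH-SY5Y cells (SD, n = 3). The 2 receptors shared no 31-base stretch of transcript.

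IGF2R, the clearance receptor at chr6:159969099-160113507 on the plus strand, ran from 58.3 to 62.8 in SH-SY5Y, from 44.6 to 58.7 in BE(2)C and from 33.4 to 52.8 in Kelly. Kelly and BE(2)C overlapped, and the highest BE(2)C library reached the SH-SY5Y range. IGF2R was lower in Kelly than in SH-SY5Y by -0.53 ± 0.16 (adjusted p = 0.0201), a difference within the largest spike-in departure. That call was lost without Kelly replicate 2 (adjusted p = 0.0607), SH-SY5Y replicate 1 (0.0558) or SH-SY5Y replicate 2 (0.056). BE(2)C differed from SH-SY5Y by -0.29 ± 0.16 (adjusted p = 0.156), which became a call with library totals only (-0.74, adjusted p = 0.00483) and with the deposited values (-0.77, adjusted p = 0.000922). Kelly and BE(2)C differed by -0.24 ± 0.16 (adjusted p = 0.239), or by -0.40 without Kelly replicate 3 (adjusted p = 0.0497). The ratio of IGF2 to IGF2R scaled TPM was 38.5 ± 9.03 in Kelly cells, 32.1 ± 6.17 in BE(2)C cells and 0.0361 ± 0.00465 in SH-SY5Y cells, and that of IGF2 to IGF1R was 39.9 ± 3.06, 25.0 ± 5.68 and 0.0891 ± 0.0146. The ligand RNA therefore exceeded both receptor RNAs in the amplified lines and fell short of both in SH-SY5Y.

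Of the 2 adaptors, IRS2 passed the test against SH-SY5Y and IRS1 did not; the difference between them was not tested. IRS2, at chr13:109752698-109786568 on the minus strand, had a scaled TPM of 125, 131 and 123 in SH-SY5Y, 22.5, 24.7 and 30.8 in BE(2)C, and 26.4, 23.3 and 25.7 in Kelly. SH-SY5Y stood apart, and the amplified lines overlapped. IRS2 was lower by -2.24 ± 0.12 in BE(2)C (adjusted p = 3.85e-07) and by -2.28 ± 0.12 in Kelly (adjusted p = 3.89e-07), and the amplified lines differed by -0.04 ± 0.12 (adjusted p = 0.805). Under the 5 scalings IRS2 stayed between -2.24 and -2.69 in BE(2)C and between -2.28 and -2.65 in Kelly. IRS1, at chr2:226731317-226799759 on the minus strand, was low in each line, at 10.0, 8.40 and 8.42 in Kelly, 8.61, 8.46 and 8.38 in BE(2)C and 7.11, 7.13 and 6.29 in SH-SY5Y. Its libraries in the amplified lines did not overlap those of SH-SY5Y, yet the differences did not pass the test: 0.34 ± 0.14 in Kelly (adjusted p = 0.0734) and 0.28 ± 0.14 in BE(2)C (adjusted p = 0.131). Quantile normalization made both calls, at 0.52 (adjusted p = 0.0122) and 0.60 (adjusted p = 0.00552), while the deposited values gave -0.17 and -0.14, neither called. IRS2 made up 94.8 ± 0.263% of the summed adaptor RNA in SH-SY5Y, 75.1 ± 3.21% in BE(2)C and 73.8 ± 1.41% in Kelly. The sum of IGF1R, INSR, IRS1 and IRS2 was 188 ± 9.16 in SH-SY5Y, 115 ± 9.44 in BE(2)C and 74 ± 4.4 in Kelly. The lines with abundant ligand RNA therefore held the smaller sum, but its parts did not all run this way. IRS2, the largest part in SH-SY5Y, averaged 126 there, 26 in BE(2)C and 25.1 in Kelly, and INSR was also highest in SH-SY5Y. IGF1R averaged 24.9, 64.7 and 39.9 in the same order, and IRS1 was also lowest in SH-SY5Y.

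Counted together, 4 of the 9 tested members were higher, 2 lower and 3 not called in BE(2)C against SH-SY5Y. Of all 13076 genes, 59.4% were called there, 28.6% higher and 30.7% lower. In Kelly against SH-SY5Y, 5 were higher, 3 lower and 1 not called, where 55.3% of all genes were called, 28.1% higher and 27.2% lower. In Kelly against BE(2)C, 2 were higher, 2 lower and 5 not called, where 52.5% of all genes were called, 27.9% higher and 24.6% lower. Libraries of the 2 lines did not overlap for 7, 9 and 4 of the 9 members in these comparisons, beside 66.1%, 63.7% and 58.3% of all genes. More than 1 in 2 genes differed between any 2 lines, so the number of members called says little by itself. The counts of lists and neighbours in this text are to be read beside the same shares of all genes. The median fold change of the members was 0.28, 0.36 and 0.00, beside -0.038, -0.005 and 0.025 for all genes. The comparisons of Kelly and of BE(2)C with SH-SY5Y share the same 3 SH-SY5Y libraries, so likeness between them is not independent.

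**Figure D3:**
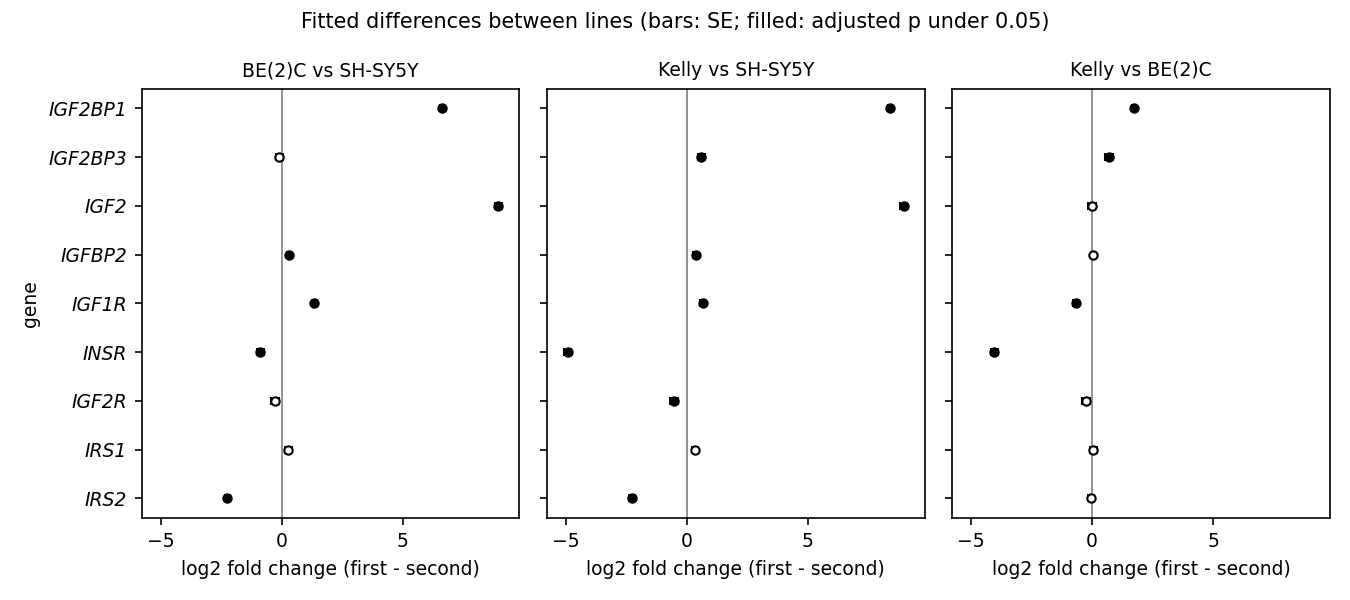
Log2 fold change ± SE of the 9 tested genes in the 3 comparisons, first line minus second, with filled points where the adjusted p was under 0.05; most bars are about the size of the points. IGF2BP1 and IGF2 lie farthest to the right against SH-SY5Y, INSR farthest to the left in both Kelly comparisons, and IRS2 lies left against SH-SY5Y and at 0 between the amplified lines.

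The scaling moved the centre of all genes. With library totals only, the median of all genes was -0.44 in BE(2)C against SH-SY5Y, -0.129 in Kelly against SH-SY5Y and 0.309 in Kelly against BE(2)C. With the deposited values it was -0.443, -0.546 and -0.091. Single genes moved by other amounts than the median. The deposited values leave the spike-ins in the total, so the pseudocount of 1 weighs more against each gene and 10279 genes pass the filter, and the differences of IGF2BP1 and IGF2 from SH-SY5Y and of INSR in Kelly came out smaller. Higher calls made up 48.2%, 50.8% and 53.2% as reported, 23.6%, 41.5% and 74.3% with library totals only, and 18.2%, 12.1% and 40.1% with the deposited values. The differences of IGF2BP1, IGF2, INSR and IRS2 from SH-SY5Y, and that of IGF1R in BE(2)C, kept their direction and call under all 5 scalings. Those of IGF2BP3, IGFBP2, IGF2R and IRS1, and that of IGF1R in Kelly, changed their call under at least 1 of them in 1 comparison or more.

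**Figure D4:**
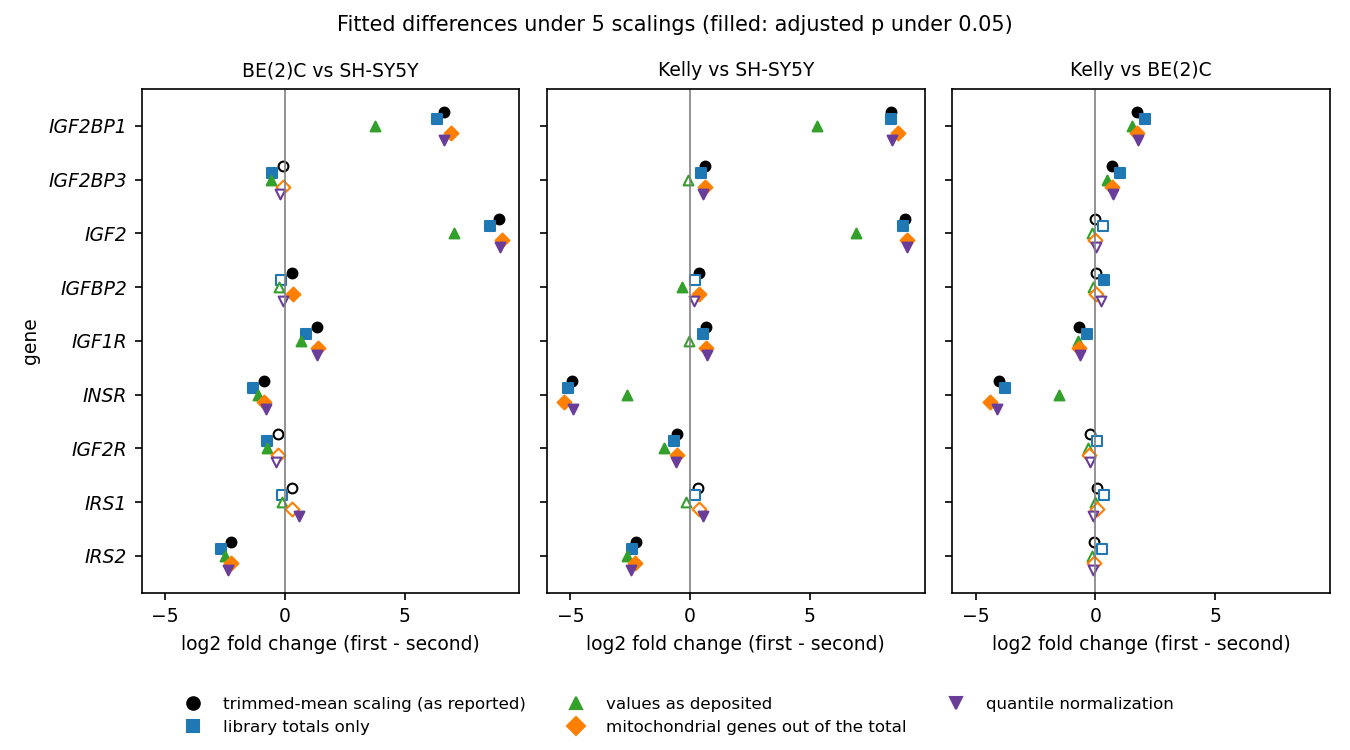
Log2 fold change of the 9 tested genes under 5 scalings, in the 3 comparisons, with filled symbols where the adjusted p was under 0.05. Symbols for IGF2BP1, IGF2, INSR and IRS2 against SH-SY5Y lie on 1 side of 0 and are filled, whereas those of IGFBP2 and IRS1 lie on both sides.

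The other ligands, carriers and carrier-modifying proteins of the pathway were listed together with INSRR, a receptor. The list held 14 genes, of which 8 were tested, and INSRR is included in the counts and medians. In BE(2)C against SH-SY5Y 3 were higher and 4 lower (median -0.74), in Kelly against SH-SY5Y 2 were higher and 5 lower (median -1.57), and in Kelly against BE(2)C 0 were higher and 6 lower (median -1.10). With the deposited values these counts were 3 and 3, 1 and 4, and 0 and 5. IGFBP5, a carrier that binds extracellular matrix, averaged 238 ± 3.60 in SH-SY5Y, 42.9 ± 2.67 in BE(2)C and 15.6 ± 0.477 in Kelly. It was lower than in SH-SY5Y by -2.44 ± 0.07 in BE(2)C (adjusted p = 1.82e-08) and by -3.85 ± 0.07 in Kelly (adjusted p = 1.52e-09). IGFBP3, the main serum carrier, averaged 15.6 ± 1.55 in SH-SY5Y and was lower in BE(2)C (-2.19 ± 0.31, adjusted p = 0.000264) and in Kelly (-2.01 ± 0.31, adjusted p = 0.000517). IGFBP4 ran the other way, at 248 ± 30.8 in Kelly cells, 353 ± 44.9 in BE(2)C cells and 121 ± 2.18 in SH-SY5Y cells, although its Kelly difference of 1.02 was 0.30 and not called with the deposited values. STC1 and STC2, the stanniocalcins, which inhibit the proteases that free IGFs from their carriers, were highest in BE(2)C, at 12.4 ± 1.25 and 40 ± 13.5. INSRR, the orphan relative of INSR, was lower in Kelly than in SH-SY5Y by -2.54 ± 0.19 (adjusted p = 4.25e-06).

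Of 34 genes that relay the insulin and IGF signal, 33 were tested. In BE(2)C against SH-SY5Y 5 were higher and 16 lower (median -0.29), in Kelly against SH-SY5Y 9 and 11 (median -0.08), and in Kelly against BE(2)C 12 and 3 (median 0.22). With library totals only these counts became 3 and 21, 5 and 13, and 19 and 2, and with the deposited values 1 and 21, 1 and 22, and 5 and 5, so the balance follows the scaling. GRB10, an adaptor that restrains IGF1R and INSR signalling, was the member with the largest difference. It averaged 39.4 ± 0.643 in Kelly cells, 0.0378 ± 0.0343 in BE(2)C cells and 0.0127 ± 0.0220 in SH-SY5Y cells, 5.32 ± 0.14 higher in Kelly than in SH-SY5Y (adjusted p = 1.53e-08) and 5.28 ± 0.14 higher than in BE(2)C (adjusted p = 2.57e-08). Both were 2.37 with the deposited values. FOXO3, a transcription factor that AKT inactivates, was lower in BE(2)C (-1.39 ± 0.11, adjusted p = 5.24e-06) and in Kelly (-1.20 ± 0.11, adjusted p = 1.56e-05) than in SH-SY5Y, where it averaged 99.4 ± 4.6. GAB1, a docking protein for PI3-kinase, was lower by -2.46 and -1.38, and PHLPP1, a phosphatase that acts on AKT, by -3.49 and -1.20. PIK3R1, the regulatory subunit of PI3-kinase, was highest in BE(2)C, at 38.5 ± 1.63 beside 15.2 ± 0.895 in Kelly and 14.7 ± 1.42 in SH-SY5Y.

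IGF2 is expressed from the paternal copy in most tissues, and other imprinted genes were therefore counted. Of 21 listed, 18 were in the table and 14 tested. In BE(2)C against SH-SY5Y 2 were higher and 8 lower (median -1.20), in Kelly against SH-SY5Y 4 and 8 (median -0.53), and in Kelly against BE(2)C 7 and 2 (median 0.40). DLK1, a paternally expressed Notch-like ligand, was higher in both amplified lines, at 4400 ± 512 in Kelly cells, 2960 ± 766 in BE(2)C cells and 92.8 ± 9.43 in SH-SY5Y cells. Its differences from SH-SY5Y were 5.55 ± 0.18 (adjusted p = 3.47e-08) and 4.95 ± 0.18 (adjusted p = 6.27e-08). CDKN1C, a maternally expressed cell-cycle inhibitor on the IGF2 chromosome arm, was at 25.8 ± 2.30 in SH-SY5Y and below 1 on average in the others. The amplified lines differed from each other in several imprinted genes: MEST averaged 48.0 ± 6.38 in Kelly and 0.207 ± 0.182 in BE(2)C, PEG3 13.5 ± 1.19 and 0.0965 ± 0.0473, NNAT 155 ± 10.1 and 5.93 ± 3.29, and NDN 1.57 ± 0.443 and 18.1 ± 2.88.

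The nearest 5 tested genes on each side of IGF2 are given for their position, and whether position plays a part was not tested. In BE(2)C against SH-SY5Y 1 of the 10 was higher and 5 lower, and in Kelly against SH-SY5Y 1 was higher and 6 lower. Of all tested genes, 28.6% were higher and 30.7% lower in BE(2)C, and 28.1% and 27.2% in Kelly. The higher neighbour was TH, tyrosine hydroxylase, the rate-limiting enzyme of catecholamine synthesis, 14.3 kb from IGF2. TH averaged 480 ± 81.0 in Kelly cells, 39.9 ± 4.71 in BE(2)C cells and 0.191 ± 0.176 in SH-SY5Y cells, differences from SH-SY5Y of 8.66 ± 0.16 (adjusted p = 1.48e-09) and 5.11 ± 0.16 (adjusted p = 2.45e-08). Unlike IGF2, TH also differed between the amplified lines, by 3.55 ± 0.16 (adjusted p = 3.16e-07). Farther out, KCNQ1, a potassium channel gene 295.1 kb away, was lower by -4.11 ± 0.18 in Kelly (adjusted p = 1.39e-07) and by -3.99 ± 0.18 in BE(2)C (adjusted p = 1.45e-07). CTSD, a lysosomal protease gene 364.5 kb to the other side, averaged 149 ± 6.39, 154 ± 7.04 and 153 ± 6.82 in Kelly, BE(2)C and SH-SY5Y, and neither difference from SH-SY5Y was called (adjusted p = 0.699 and 0.865). Of the 10 neighbours, TH was the 1 that was higher in both amplified lines.

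**Figure D5:**
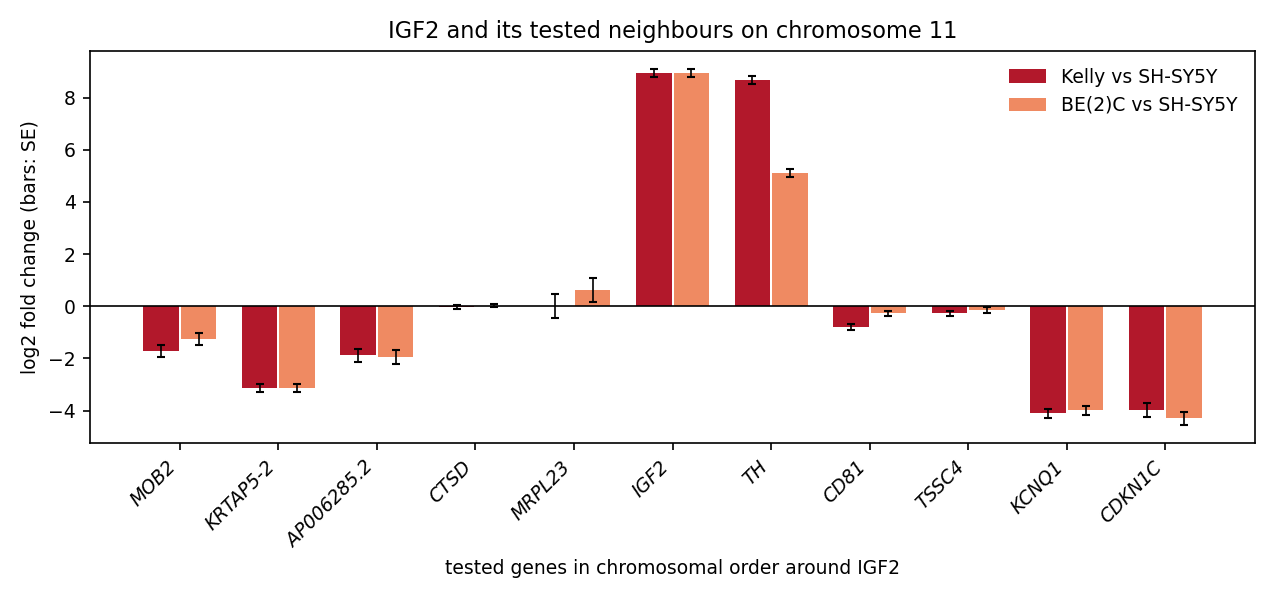
Log2 fold change (bars, with SE) of IGF2 and the 5 nearest tested genes on each side on chromosome 11, in chromosomal order, for Kelly and for BE(2)C against SH-SY5Y. IGF2 (8.95 in both) and TH (8.66 and 5.11) rise together in the middle, and KCNQ1 and CDKN1C fall by about as much in both lines.

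Around IGF2BP1 on chromosome 17, the 10 neighbours ran from -3.37 to 0.44 in BE(2)C and from -2.74 to 0.50 in Kelly against SH-SY5Y, with 1 higher in each and 4 and 3 lower. The lowest was NGFR, the low-affinity neurotrophin receptor gene, at 18.5 in SH-SY5Y, 2.00 in Kelly and 0.927 in BE(2)C. The highest was PHB, a mitochondrial scaffold gene, at 0.50 ± 0.09 in Kelly (adjusted p = 0.00128) and 0.44 ± 0.09 in BE(2)C (adjusted p = 0.00233). PHB was thus called higher in both, by far less than IGF2BP1. Whether position plays a part was not tested.

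Genes that act with the IGF2BP proteins were counted next. Of 12 ribonucleoprotein partners 11 were tested, with 6 higher and 2 lower in BE(2)C against SH-SY5Y (median 0.17), 5 and 0 in Kelly against SH-SY5Y (median 0.09), and 4 and 3 in Kelly against BE(2)C (median 0.19). With the deposited values these counts were 0 and 7, 0 and 6, and 2 and 2, so no direction is drawn for the list. YBX1, a partner in the same granules, averaged 3300 ± 82.3 in Kelly cells, 2090 ± 208 in BE(2)C cells and 2420 ± 43.1 in SH-SY5Y cells. Of the m6A writers, erasers and readers, 14 were tested, with 6 higher and 3 lower, 2 and 2, and 3 and 4 in the same order of comparisons (medians 0.17, 0.13 and 0.02), and 1 and 7, 1 and 11, and 1 and 3 with the deposited values. RBM15, a subunit of the methyltransferase complex, was higher than in SH-SY5Y by 1.16 ± 0.07 in Kelly (adjusted p = 1.15e-06) and by 0.95 ± 0.07 in BE(2)C (adjusted p = 3.75e-06). Its homolog RBM15B was lower, by -0.70 ± 0.08 and -0.79 ± 0.08, and both genes kept these directions with the deposited values. CBLL1, another subunit of that complex, was lower by -1.96 ± 0.14 in Kelly (adjusted p = 3.63e-06) and by -0.78 ± 0.14 in BE(2)C (adjusted p = 0.00113).

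Of 21 RNAs reported to be bound by IGF2BP proteins, 20 were tested. MYCN, whose amplification separates the lines, is among them and is counted as higher against SH-SY5Y. In BE(2)C against SH-SY5Y 12 were higher and 6 lower (median 0.44), in Kelly against SH-SY5Y 11 and 6 (median 0.45), and in Kelly against BE(2)C 8 and 4 (median 0.20). With the deposited values these counts were 4 and 7, 4 and 9, and 4 and 3. Of all genes as reported, 28.6% were higher and 30.7% lower, 28.1% and 27.2%, and 27.9% and 24.6% in the same order. LIN28B, which blocks let-7 maturation, averaged 104 ± 3.65 in Kelly cells, 93.9 ± 7.70 in BE(2)C cells and 9.64 ± 0.537 in SH-SY5Y cells. CDK6, a cell-cycle kinase, averaged 230 ± 9.86, 127 ± 9.71 and 26.0 ± 4.31. MYC, whose mRNA is a classic IGF2BP1 target, went the opposite way, at 0.0960 ± 0.0930, 0.504 ± 0.175 and 90.4 ± 0.950. Between the amplified lines, which differ 3.37 times in IGF2BP1, listed RNAs went both ways. CCND1, the cyclin D1 gene (-2.02 ± 0.07, adjusted p = 5.95e-08), and ABCB1 (-1.35 ± 0.1, adjusted p = 7.15e-06) were lower in Kelly. CD44 (1.43 ± 0.2, adjusted p = 0.000271) and CTNNB1, the beta-catenin gene (0.91 ± 0.05, adjusted p = 1.43e-06), were higher. With the deposited values CD44 was not tested. The part of IGF2BP1 in the levels of these RNAs, MYC included, was not tested.

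Genes of let-7 and LIN28 control, with let-7 targets such as TRIM71 in the same list, were followed next. LIN28B is counted here and also among the bound RNAs. Of all tested genes, 28.6% were higher and 30.7% lower in BE(2)C against SH-SY5Y. The shares were 28.1% and 27.2% in Kelly against SH-SY5Y, and 27.9% and 24.6% in Kelly against BE(2)C. Of 9 tested, 5 were higher and 0 lower in BE(2)C against SH-SY5Y (median 0.61), 7 and 1 in Kelly against SH-SY5Y (median 1.05), and 3 and 1 in Kelly against BE(2)C (median 0.33), with 3 and 3, 4 and 1, and 3 and 1 with the deposited values. TRIM71, a let-7 target and RNA-binding ubiquitin ligase, had an order like that of IGF2BP1, at 24.7 ± 2.23 in Kelly cells, 4.13 ± 0.902 in BE(2)C cells and 0.331 ± 0.0809 in SH-SY5Y cells. It was higher in Kelly than in SH-SY5Y by 4.27 ± 0.18 (adjusted p = 1.38e-07) and than in BE(2)C by 2.34 ± 0.18 (adjusted p = 7.40e-06).

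Of 8 genes known to regulate IGF2 transcription or imprinting, 7 were tested, with 3 higher and 2 lower in BE(2)C against SH-SY5Y, 3 and 1 in Kelly against SH-SY5Y, and 1 and 2 in Kelly against BE(2)C. With the deposited values the counts were 0 and 2, 0 and 2, and 1 and 1. E2F3, an activator of IGF2 transcription, was lower in both amplified lines, by -1.04 ± 0.07 in Kelly (adjusted p = 2.10e-06) and by -0.69 ± 0.07 in BE(2)C (adjusted p = 2.58e-05). TRIM28, a corepressor that keeps imprints, averaged 799 ± 33.4 in Kelly cells, 234 ± 47.0 in BE(2)C cells and 531 ± 8.21 in SH-SY5Y cells.

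The genes whose profile over the 9 libraries lay nearest to that of IGF2BP1 were LRRTM1 (Euclidean distance 1.98 on the centred log2 scale), MYCN (2.21), TH (2.44), CHST2 (2.59) and LOXL1 (2.83). LRRTM1, a synaptic adhesion protein gene, averaged 112 ± 7.32 in Kelly cells, 53.4 ± 0.737 in BE(2)C cells and 0.0361 ± 0.0626 in SH-SY5Y cells. Nearest to IGF2 were MYCN (1.78), ASS1 (2.05), PRPH (2.31), IGF2BP1 (3.02) and MAB21L2 (3.21). ASS1, the argininosuccinate synthase gene, averaged 238 ± 13.6 in Kelly and 672 ± 101 in BE(2)C and was listed near 0 in SH-SY5Y, at 0.00795 ± 0.0138. PRPH, the gene of the neuronal filament peripherin, averaged 411 ± 12.9, 1060 ± 276 and 1.45 ± 0.222. These distances come from 9 libraries of 3 lines, so they describe a pattern over 3 lines.

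Since MYCN binds the E-box CACGTG, these letters, which read the same on both strands, were searched in the RefSeq promoter windows (GRCh38.p14, 250 bases before to 50 after the gene's start) of the 8 members that matched. Of 9937 tested genes with a window, 10.2% held the E-box. It occurred in 3 of the 8, with 3 copies in IGF2R, 2 in IGF2BP3 and 1 in IRS1. Of their RNAs, IGF2BP3 was higher in Kelly than in both other lines, IGF2R was lower in Kelly than in SH-SY5Y, and IRS1 was not called in any comparison. The windows of IGF1R, INSR, IRS2, IGFBP2 and IGF2BP2 held 0 copies, and IGF2BP1 and IGF2 were not among those matched. The stretches before the start of IGF2R and IGF2BP3 are printed to show the repeated copies, in capitals.

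IGF2R, chr6:159968832-159969081, plus strand: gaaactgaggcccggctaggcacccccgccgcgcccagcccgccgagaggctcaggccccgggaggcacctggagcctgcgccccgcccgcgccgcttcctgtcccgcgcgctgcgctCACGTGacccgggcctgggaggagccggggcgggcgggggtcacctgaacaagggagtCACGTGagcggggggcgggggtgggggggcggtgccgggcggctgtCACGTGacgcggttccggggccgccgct
IGF2BP3, chr7:23470492-23470741, minus strand: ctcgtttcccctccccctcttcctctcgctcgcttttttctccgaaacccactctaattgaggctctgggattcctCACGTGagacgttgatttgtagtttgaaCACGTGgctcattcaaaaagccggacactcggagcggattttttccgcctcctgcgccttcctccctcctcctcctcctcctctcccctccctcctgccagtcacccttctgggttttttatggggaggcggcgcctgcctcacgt

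The copies of IGF2R begin 132, 74 and 28 bases before the start, and those of IGF2BP3 174 and 146 bases before it. A match describes the letters of the window and says nothing of binding in these lines.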

How the data were processed

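The deposited table holds log10 values, which the authors left as log10(TPM + 1): back-transformed, they sum to 966592 to 980009 in each library. Salmon 0.3.2, HISAT 0.1.6 and the build GRCh38 are listed, without roles, in the submitters' processing notes, and the step from transcripts to genes is not given in these sources. Library depth is unknown because TPM keeps none, so counting intervals are left out. Per the labels' protocols, RNA was extracted with Trizol and poly(A)-selected libraries were made with an NEBNext Ultra kit. Of 19837 entries, 92 ERCC spike-ins and 11 reporter or selection markers were left out of totals, and 28 date-named entries stayed in totals and out of tests. The number of unused columns is 0.

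Gene values were rescaled to the gene total and divided by an unweighted trimmed-mean factor (trimming 30% of ratios and 5% of levels from both ends, factors 0.758 to 1.17). The design allowed for counts or TPM, and its TPM branch was used: limma 3.58.1 (R 4.3.3), trend method, log2(scaled TPM + 1), all 9 libraries in 1 fit, genes reaching 1 in 3 libraries or more (13076), two-sided, Benjamini-Hochberg. The fit was tested on simulated data. Lists are given by counts and medians without a set test. The 10 members, the lists and the rules were chosen with earlier results of these data known. Names in the text follow a rule: all members and MYCN, up to 4 called members per list and comparison at 10 or more in the higher line, neighbours of IGF2 and IGF2BP1, and the 5 genes nearest in profile to each of IGF2BP1 and IGF2. VIM, COL1A2, S100B, HSPA8, TUBB, ARHGEF18, GPR108, INS-IGF2, IGF1, INS, MALSU1 and METTL3 were named outside it, after their values were seen. Gene and UTR positions are from GENCODE 29, and microRNA and promoter sequences from RefSeq. Alternatives changed the scaling, the pseudocount (0.1 and 10), the filter, the libraries in the fit and the replicate block.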

Additional observations from a re-analysis of the deposited data

How the results depend on the processing

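Depth is unknown, so values under 1 cannot be read as presence or absence. Among named list genes that were still tested, the scaling ended calls for differences as large as 1.02 (IGFBP4, Kelly against SH-SY5Y). CD44, at 1.43 in Kelly against BE(2)C, was not tested with the deposited values. The members called numbered 5 to 6 in BE(2)C against SH-SY5Y, 7 to 8 in Kelly against SH-SY5Y and 4 to 5 in Kelly against BE(2)C when each library was left out in turn. IGF2BP1, IGF2, INSR and IRS2 against SH-SY5Y kept direction and call under every alternative run. With quantile normalization the IGF2BP2 share of its family in BE(2)C was 0.0833% in place of 0.0589%, and the IGF2BP3 share in SH-SY5Y was 99.8% in place of 99.7%. The cause of the sign changes that follow was not tested. With the deposited values, Kelly against SH-SY5Y turned to -0.03 for IGF1R, -0.1 for IGF2BP3, -0.35 for IGFBP2 and -0.17 for IRS1, BE(2)C against SH-SY5Y to -0.26 for IGFBP2 and -0.14 for IRS1, and Kelly against BE(2)C to -0.14 for IGF2, -0.09 for IGFBP2 and -0.03 for IRS1. With library totals only, BE(2)C against SH-SY5Y turned to -0.15 for IGFBP2 and -0.13 for IRS1, and Kelly against BE(2)C to 0.07 for IGF2R, 0.27 for IRS2 and 0.32 for MYCN. Quantile normalization gave -0.08 for IGFBP2 in BE(2)C against SH-SY5Y, and -0.08 for IRS1 and 0.62 for MYCN in Kelly against BE(2)C. With mitochondrial genes out of the total, IGF2 in Kelly against BE(2)C was -0.01. Leaving out 1 library at a time turned the sign of differences near 0: IGF2BP3 in BE(2)C against SH-SY5Y ran from -0.22 to 0.08 and, in Kelly against BE(2)C, IGF2 from -0.18 to 0.13, IGFBP2 from -0.02 to 0.12, IRS1 from -0.01 to 0.1, IRS2 from -0.13 to 0.09 and MYCN from -0.16 to 0.09.

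Replicate numbers did not pair the libraries: the correlation of same-numbered deviations ran from -0.054 to 0.027 over 9 pairs, and 2 of 9 libraries correlated best with their own number. With the replicate number as a block, 6, 8 and 4 members were called, and 7544, 6980 and 6634 of all genes, in BE(2)C against SH-SY5Y, Kelly against SH-SY5Y and Kelly against BE(2)C.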
